A study of Homo sapiens with 6 samples.

Results

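The 49 genes that encode the subunits, activators and assembly factors of the human proteasome, with the transcription factor gene *NFE2L1*, were compared between *ZKSCAN3*-deficient and parental colon cancer cells. They were taken by gene symbol from a table of 46427 genes, and pseudogenes were left out. By the textbook structure of the complex they fall into the alpha ring (7 genes), the beta ring (7), the immunosubunits (3), the ATPases of the cap (6), the other subunits of its base (4), its lid (8), activators and an inhibitor (5), assembly factors of the core (5) and of the base (3), and *NFE2L1*. The alpha ring, beta ring, ATPases, base and lid genes of this list are together called the 32 constitutive subunits. The small lid subunit gene *SEM1* is not among the 49 members and is given with factors that bind the proteasome.

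HCT116 is an established line of human colon carcinoma cells. The parental line (*ZK3*-WT) was compared with a derived line (*ZK3*-KO) in which CRISPR/Cas9 had been used to remove the start codon of *ZKSCAN3*, a zinc finger transcription factor gene, on both alleles. The *ZK3*-KO cells came from single-cell selection with puromycin, so the genotype and the history of the selected cells cannot be told apart. Both lines grew in DMEM with 10% fetal bovine serum, and polyadenylated RNA of biological triplicates of each was sequenced in stranded, paired-end libraries.

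Proteasomes degrade proteins that carry chains of ubiquitin. The barrel-shaped core holds the protease sites inside a pair of beta rings, closed at both ends by alpha rings, and the cap binds ubiquitin, removes it, unfolds the substrate with its ring of ATPases and feeds it into the core. Cells exposed to interferon replace the catalytic beta subunits by immunosubunits and add the PSME1/PSME2 activator, which serves the supply of peptides for antigen presentation, and cells short of proteasome activity raise constitutive subunit genes through NFE2L1.

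Each library held 60827060 to 69739215 counted reads. Counts were scaled to CPM, reads per gene at a common library size, with TMM factors, which adjust library totals so that most genes keep their level between libraries, and values below are given for replicates 1, 2 and 3 in that order. The fold changes and the false discovery rate (FDR, Benjamini-Hochberg over 18366 tested genes, threshold 0.05) are from edgeR's quasi-likelihood test. Standard errors were derived from that test, as the absolute log2 fold change over the square root of its F statistic. *ZK3*-KO replicate 3 stood apart from the other *ZK3*-KO libraries. Its log2 CPM correlated with theirs at 0.973 and 0.961 across genes, while they correlated with each other at 0.993 and the *ZK3*-WT libraries among themselves at 0.991 to 0.995. With the *ZK3*-WT libraries it correlated at 0.968 to 0.978, the highest with *ZK3*-WT replicate 3 and above both values within its own group. *ZKSCAN3* itself had 28.1, 23.4 and 19.8 CPM across the *ZK3*-WT libraries and 25.4, 24.9 and 13.6 CPM across the *ZK3*-KO libraries (log2 fold change -0.16, standard error 0.27, FDR 0.797), and a count over the whole gene does not test for the loss of a start codon. Of 7 epithelial marker genes, *EPCAM*, *CDH1*, *KRT8*, *KRT18*, *KRT19* and *CDX2* were present in every library and *VIL1* was almost absent. Of 7 markers of other cell types, *PTPRC* and *CD3E* had no reads, and *COL1A1*, at 32.2 to 98.8 CPM, was the only one above 2 CPM. In bulk RNA, a smaller share of cells that express a gene and less RNA of it per cell cannot be told apart.

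Results turn on 6 members that passed the FDR threshold: *PSMC1*, *PSMA6*, *PSMA3* and *PSMC5*, which were higher in *ZK3*-KO cells, and *PSMB9* and *PSME1*, which were lower. Their promoters are shown because the members that moved together, and those that moved against them, can be compared in the letters before their starts. Each line holds 300 bases, from 250 before to 50 after the transcription start, 5′ to 3′ on the strand of the gene, from RefSeq on GRCh38.p14, a newer build than the hg19 of the counted reads. Capitals mark matches on either strand to TGACNNNGC (the core of the antioxidant response element, bound by NFE2L1 and its relatives with small MAF proteins), a pair of GAAA boxes with 2 bases between them (the core of the interferon-stimulated response element), CCAAT (the NF-Y box) and GGGCGG (the GC box, which reads CCGCCC on the other strand). The windows are chr14:90256303-90256602 for *PSMC1*, chr14:35292067-35292366 for *PSMA6*, chr14:58244593-58244892 for *PSMA3*, chr17:63827181-63827480 for *PSMC5*, chr6:32853942-32854241 for *PSMB9* and chr14:24135944-24136243 for *PSME1*, all on the forward strand. For *PSMA6* and *PSMC5* the first of 2 listed starts is shown.
PSMC1: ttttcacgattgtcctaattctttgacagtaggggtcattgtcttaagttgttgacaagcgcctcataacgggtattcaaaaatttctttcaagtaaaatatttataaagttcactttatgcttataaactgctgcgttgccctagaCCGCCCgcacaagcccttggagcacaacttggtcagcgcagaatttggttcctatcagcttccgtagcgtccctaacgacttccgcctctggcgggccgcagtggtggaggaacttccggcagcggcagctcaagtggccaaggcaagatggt
PSMA6: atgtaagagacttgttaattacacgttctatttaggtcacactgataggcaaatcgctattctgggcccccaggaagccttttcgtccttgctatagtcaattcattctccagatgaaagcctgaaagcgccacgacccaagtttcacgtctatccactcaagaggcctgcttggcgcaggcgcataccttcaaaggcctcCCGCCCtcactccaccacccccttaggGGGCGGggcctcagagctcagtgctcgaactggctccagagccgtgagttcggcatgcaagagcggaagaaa
PSMA3: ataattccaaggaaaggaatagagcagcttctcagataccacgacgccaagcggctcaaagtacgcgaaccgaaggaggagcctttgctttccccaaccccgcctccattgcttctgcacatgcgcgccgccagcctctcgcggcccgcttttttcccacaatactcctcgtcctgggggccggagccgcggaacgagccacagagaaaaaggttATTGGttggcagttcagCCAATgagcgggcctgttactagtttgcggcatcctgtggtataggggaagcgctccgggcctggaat
PSMC5: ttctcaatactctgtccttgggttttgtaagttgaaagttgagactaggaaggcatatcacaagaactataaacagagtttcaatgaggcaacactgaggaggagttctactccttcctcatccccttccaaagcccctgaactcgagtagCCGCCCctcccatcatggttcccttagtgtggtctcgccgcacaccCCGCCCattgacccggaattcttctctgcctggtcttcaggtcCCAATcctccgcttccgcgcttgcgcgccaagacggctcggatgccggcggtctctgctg
PSMB9: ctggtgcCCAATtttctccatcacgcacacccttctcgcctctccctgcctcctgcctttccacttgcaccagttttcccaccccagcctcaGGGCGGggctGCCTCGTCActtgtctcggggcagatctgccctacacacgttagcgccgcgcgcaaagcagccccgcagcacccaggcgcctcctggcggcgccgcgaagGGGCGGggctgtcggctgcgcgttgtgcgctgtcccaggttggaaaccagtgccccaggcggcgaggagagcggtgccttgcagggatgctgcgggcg
PSME1: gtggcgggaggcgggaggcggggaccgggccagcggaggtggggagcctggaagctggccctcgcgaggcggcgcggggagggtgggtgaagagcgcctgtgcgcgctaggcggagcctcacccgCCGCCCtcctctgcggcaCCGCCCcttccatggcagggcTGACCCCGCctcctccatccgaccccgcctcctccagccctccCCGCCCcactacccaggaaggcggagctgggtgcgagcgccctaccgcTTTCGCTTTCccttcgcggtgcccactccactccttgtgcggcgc

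The *PSMC1* window held 1 GC box and none of the other letters, and the *PSMA6* window held 2 GC boxes. The *PSMA3* window held 2 CCAAT matches on opposite strands close to the start, and the *PSMC5* window 1 CCAAT and 2 GC boxes. The *PSMB9* window held 1 antioxidant core, 1 CCAAT and 2 GC boxes, and the *PSME1* window 1 antioxidant core, 1 interferon core and 3 GC boxes. The window at the other start of *PSMC5* also held the antioxidant core. Promoters were listed for 43 of the 49 members, with 54 windows in all. TGACNNNGC was found in 17 of these windows (31.5%), against 13.3% of 35116 promoters of the same length. The interferon core was found in 7 (13.0%, against 3.57%), those of *PSMA4*, *PSMB4*, *PSMB8*, *PSMB10*, *PSME1*, *PSME2* and *PSMG4*. CCAAT was found in 22 (40.7%, against 34.6%) and GGGCGG in 38 (70.4%, against 45.0%). A match describes the letters and is not evidence of a bound site.

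Across the 49 members, all of which passed edgeR's filter on low counts, 42 had a log2 fold change above 0, against 51.7% of all tested genes. At the FDR threshold 4 members rose and 2 fell in *ZK3*-KO cells. Of all tested genes 2.05% passed, 0.817% as higher and 1.23% as lower. An unadjusted p-value under 0.05 was reached by 28 members and by 18.4% of all genes. The median log2 fold change was 0.46 over the members and 0.02 over all tested genes. The direction differed by subgroup. All 32 constitutive subunits were higher in *ZK3*-KO cells, with a median log2 fold change of 0.49 and a range of 0.34 to 1.33, and each stayed above 0 in all 14 alternative fits. Of the other 17 members 10 were higher, with a median of 0.03, and 2 of them fell past the threshold.

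**Figure D1:**
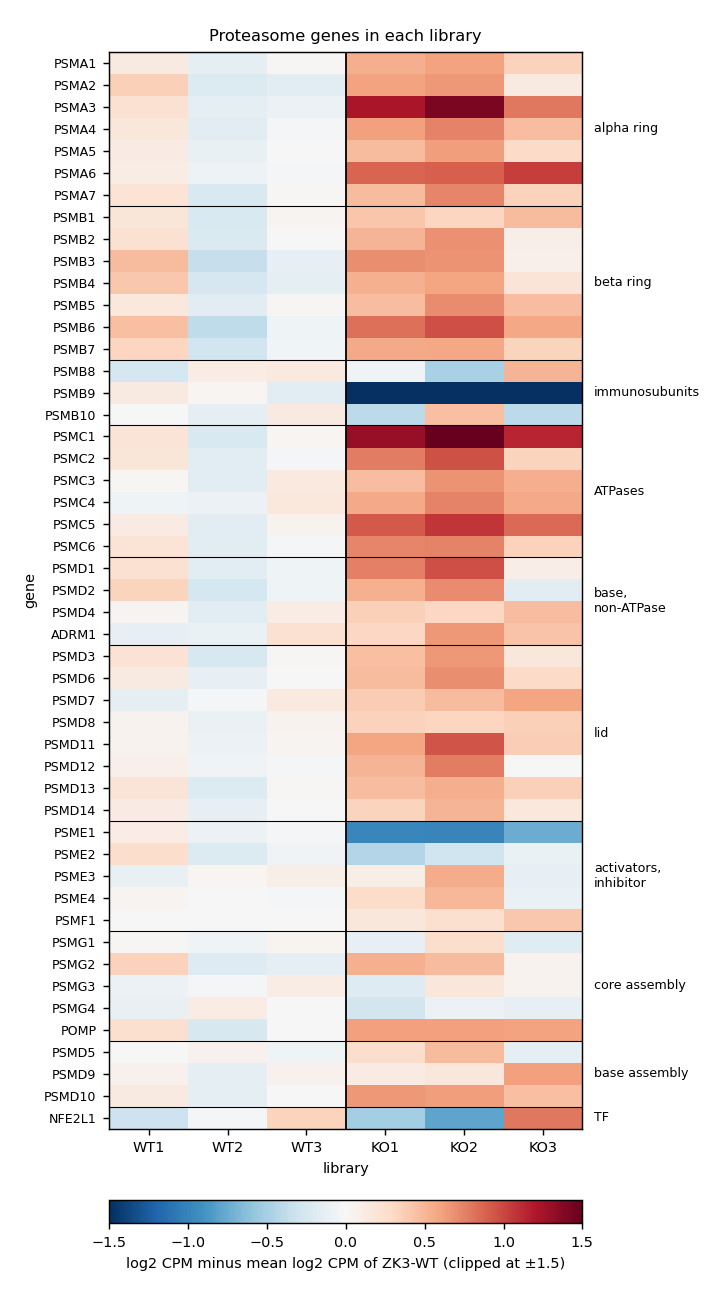
Heat map of log2 CPM of the 49 proteasome genes (rows, by subgroup) in each library (columns), as the difference from the mean log2 CPM of the 3 *ZK3*-WT libraries, with colours clipped at ±1.5. The constitutive subunits are above 0 in nearly every *ZK3*-KO library, with weaker colours in *ZK3*-KO replicate 3, while *PSMB9* and *PSME1* are below 0 in all 3.

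The calls depended on which libraries were included. Without any 1 of the *ZK3*-WT libraries or without *ZK3*-KO replicate 1, edgeR called none of the 49 members, where 0.357%, 0.261%, 0.303% and 0.392% of all genes were called in that order. Between 17 and 30 of the members had an unadjusted p-value under 0.05 in these fits, against 10.1% to 15.3% of all genes. Without *ZK3*-KO replicate 2 it called 1 (*PSMC1*, FDR 0.0468), where 0.835% of all genes were called, and 20 had an unadjusted p-value under 0.05, against 15.2% of all genes. Without *ZK3*-KO replicate 3 it called 27, 25 as higher and 2 as lower, where 15.1% of all 18872 tested genes were called (7.41% as higher and 7.73% as lower). These 27 included the 6 called with all libraries. The median of the members stayed between 0.35 and 0.55 in these 6 fits. With the replicate number as a block, the same 6 members were called, where 2.51% of all genes passed (0.969% as higher and 1.54% as lower). *PSMA3* lost its call with library totals (FDR 0.0613), with a filter of 1 read (FDR 0.0519) and in limma on TPM (FDR 0.0949), and *PSMC5* in limma on TPM (FDR 0.0738).

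The constitutive subunits moved together within each genotype. Relative to the *ZK3*-WT mean, their median log2 CPM was 0.18, -0.17 and -0.01 in the *ZK3*-WT libraries and 0.54, 0.69 and 0.35 in the *ZK3*-KO libraries, so every *ZK3*-KO median was above every *ZK3*-WT median. *ZK3*-WT replicate 1 held the highest *ZK3*-WT value for 26 of the 32 subunits and replicate 2 the lowest for 30. Among *ZK3*-KO libraries, replicate 2 was highest for 26 and replicate 3 lowest for 23. Over all 18366 tested genes these 4 counts were 7224, 6011, 6238 and 7606, in the same order. The order was not particular to the proteasome. *ZK3*-KO replicate 2 was highest and replicate 3 lowest for 9 of 9 COP9 signalosome genes and 8 of 8 CCT chaperonin genes. For 16 genes of the anaphase-promoting complex these counts were 9 and 8.

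For 24 of the 32 constitutive subunits all *ZK3*-KO libraries were above all *ZK3*-WT libraries in CPM, as they were for 12.7% of all genes. In the other 8 (*PSMA2*, *PSMB2*, *PSMB3*, *PSMB4*, *PSMD1*, *PSMD2*, *PSMD3* and *PSMD12*) only *ZK3*-KO replicate 3 reached into the *ZK3*-WT range. The number depended on the scale. With CPM by library totals alone it was 15 of 32 (8.84% of all genes), and in the deposited TPM (scaled by the authors for transcript length and library size) it was 11 of 32 (6.83% of all genes). On the TPM scale the median of all genes in *ZK3*-KO replicate 3 was at -0.32 relative to *ZK3*-WT, against -0.01 and -0.04 in replicates 1 and 2, and the median of the constitutive subunits in that library was 0.02.

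**Figure D2:**
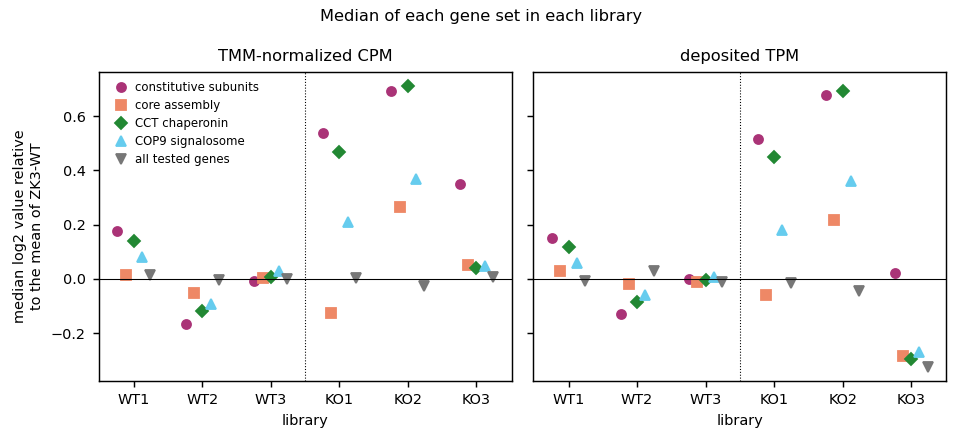
Median log2 value of each gene set in each library relative to the *ZK3*-WT mean, in TMM-normalized CPM (left) and deposited TPM (right); each point is 1 set in 1 library. The constitutive subunits are at 0.54, 0.69 and 0.35 in the *ZK3*-KO libraries in CPM, and in TPM all sets drop in *ZK3*-KO replicate 3 along with the median of all genes at -0.32.

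The alpha ring forms the gate through which substrates enter the core. All 7 of its genes were higher in *ZK3*-KO cells, 2 of them past the threshold. *PSMA6* (NCBI Gene 5687, chr14:35747839-35786699 on GRCh37) had 87.0, 76.6 and 78.8 CPM across the *ZK3*-WT libraries and 148, 151 and 166 CPM across the *ZK3*-KO libraries. Its 3 *ZK3*-KO values were close together and all were well above the *ZK3*-WT values, a 1.92-fold rise (log2 fold change 0.94, standard error 0.14, FDR 0.0225). *PSMA3* (NCBI Gene 5684, chr14:58711561-58738730) had 75.5, 58.9 and 60.7 CPM across the *ZK3*-WT libraries and 151, 172 and 112 CPM across the *ZK3*-KO libraries. The groups did not overlap, *ZK3*-KO replicate 3 was the lowest of its group, and the rise was 2.23-fold (log2 fold change 1.16, standard error 0.20, FDR 0.0371).

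The other 5 alpha genes had log2 fold changes of 0.46 to 0.61 (FDR 0.106 to 0.316). *PSMA4* had 145, 115 and 128 CPM across the *ZK3*-WT libraries and 197, 216 and 178 CPM across the *ZK3*-KO libraries. *PSMA7*, the most abundant of the ring per length, had 165, 122 and 144 CPM across the *ZK3*-WT libraries and 197, 236 and 181 CPM across the *ZK3*-KO libraries. *PSMA1* had 139, 114 and 128 CPM across the *ZK3*-WT libraries and 185, 192 and 160.4 CPM across the *ZK3*-KO libraries. In these 3 genes every *ZK3*-KO library was above every *ZK3*-WT library. *PSMA5*, the least abundant per length, had 83.8, 71.3 and 77.0 CPM across the *ZK3*-WT libraries and 107, 119 and 94.5 CPM across the *ZK3*-KO libraries, also without overlap. *PSMA2* had 100.5, 68.0 and 70.3 CPM across the *ZK3*-WT libraries and 119, 122 and 86.2 CPM across the *ZK3*-KO libraries, and there *ZK3*-KO replicate 3 lay below *ZK3*-WT replicate 1. All 7 passed the threshold in edgeR's test without *ZK3*-KO replicate 3, with log2 fold changes of 0.55 to 1.32 (FDR 0.00135 to 0.0481). In that fit 7.41% of all genes passed as higher, against 0.817% with all 6 libraries.

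The beta ring carries the protease sites. All 7 constitutive beta genes were higher in *ZK3*-KO cells and none passed the threshold (FDR 0.133 to 0.396). In edgeR's test 4 of them had an unadjusted p-value under 0.05, as did 18.4% of all genes. *PSMB6*, which holds the caspase-like site, had the highest log2 fold change of the ring. It had 109, 61.2 and 76.2 CPM across the *ZK3*-WT libraries and 141, 156 and 119 CPM across the *ZK3*-KO libraries (log2 fold change 0.76, standard error 0.23, FDR 0.157). The groups did not overlap, with *ZK3*-WT replicate 1 the highest of its group. *PSMB5*, which holds the chymotrypsin-like site that proteasome inhibitor drugs block, had 115, 91.5 and 104 CPM across the *ZK3*-WT libraries and 141, 169 and 142 CPM across the *ZK3*-KO libraries (log2 fold change 0.55, standard error 0.16, FDR 0.133). *PSMB7*, which holds the trypsin-like site, had 117, 76.6 and 91.1 CPM across the *ZK3*-WT libraries and 139, 139.9 and 118 CPM across the *ZK3*-KO libraries (log2 fold change 0.48, standard error 0.19, FDR 0.24). For both genes the *ZK3*-KO libraries were all above the *ZK3*-WT libraries, for *PSMB7* by a small margin in replicate 3.

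Among the beta subunits without a protease site, *PSMB2* had 179.6, 132 and 152 CPM across the *ZK3*-WT libraries and 218, 246 and 163 CPM across the *ZK3*-KO libraries, with replicate 3 of *ZK3*-KO within the *ZK3*-WT range. *PSMB1* had the lowest log2 fold change of the ring, at 0.39, and had 175, 132 and 158 CPM across the *ZK3*-WT libraries and 205, 192 and 213 CPM across the *ZK3*-KO libraries. There *ZK3*-KO replicate 3 was the highest library. *PSMB3* and *PSMB4* had log2 fold changes of 0.47 and 0.42 and overlapping groups. Of the ring, *PSMB2*, *PSMB5* and *PSMB6* passed the threshold without *ZK3*-KO replicate 3 (FDR 0.0321, 0.0274 and 0.0286 in edgeR's test), where 7.41% of all genes passed as higher.

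Of the immunosubunits, which replace catalytic subunits, 1 fell and the others did not pass. *PSMB9*, which takes the place of *PSMB6*, fell 4.74-fold. *PSMB9* (NCBI Gene 5698, chr6:32811913-32827628 on GRCh37) had 5.93, 5.51 and 4.81 CPM across the *ZK3*-WT libraries and 1.43, 1.30 and 0.696 CPM across the *ZK3*-KO libraries, from 373, 386 and 336 reads and 92, 90 and 43 reads. Every *ZK3*-KO library was below every *ZK3*-WT library, and *ZK3*-KO replicate 3 was the lowest (log2 fold change -2.24, standard error 0.32, FDR 0.0204). Leaving out *ZK3*-KO replicate 3, the log2 fold change was -1.98 (FDR 0.00192). *PSMB10*, which takes the place of *PSMB7*, had 10.1, 9.09 and 11.0 CPM across the *ZK3*-WT libraries and 7.67, 13.8 and 7.67 CPM across the *ZK3*-KO libraries (log2 fold change -0.05, standard error 0.27, FDR 0.941), and the groups overlapped. *PSMB8*, which takes the place of *PSMB5*, was barely expressed, at 0.541, 0.699 and 0.715 CPM across the *ZK3*-WT libraries and 0.621, 0.462 and 0.922 CPM across the *ZK3*-KO libraries, also with overlap. The GRCh37 span given for *PSMB9* is that of its longest GENCODE transcripts, which run across *TAP1* and the start of *PSMB8* on the opposite strand. The RefSeq start of *PSMB9*, on GRCh38.p14, lies beyond the starts of both of these genes, so there the genes do not overlap.

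Levels between genes were compared per length, in deposited TPM. The share of *PSMB9* in the sum of *PSMB6* and *PSMB9* was 4.21%, 6.80% and 4.86% in the *ZK3*-WT libraries and 0.812%, 0.662% and 0.466% in the *ZK3*-KO libraries, so the groups did not overlap (means 5.29% ± 1.35 and 0.647% ± 0.174, SD, n = 3 each; exact permutation test over libraries, two-sided, p = 0.1, the smallest that 3 against 3 allows). The share of *PSMB10* in the sum of *PSMB7* and *PSMB10* was 9.83% ± 1.62 and 6.80% ± 1.96 (SD, n = 3 each), with overlap (p = 0.2 in the same exact test). The share of *PSMB8* in the sum of *PSMB5* and *PSMB8* was 0.500% ± 0.115 and 0.361% ± 0.143, also with overlap (exact p = 0.2). A ratio within a library does not depend on how libraries are scaled.

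**Figure D3:**
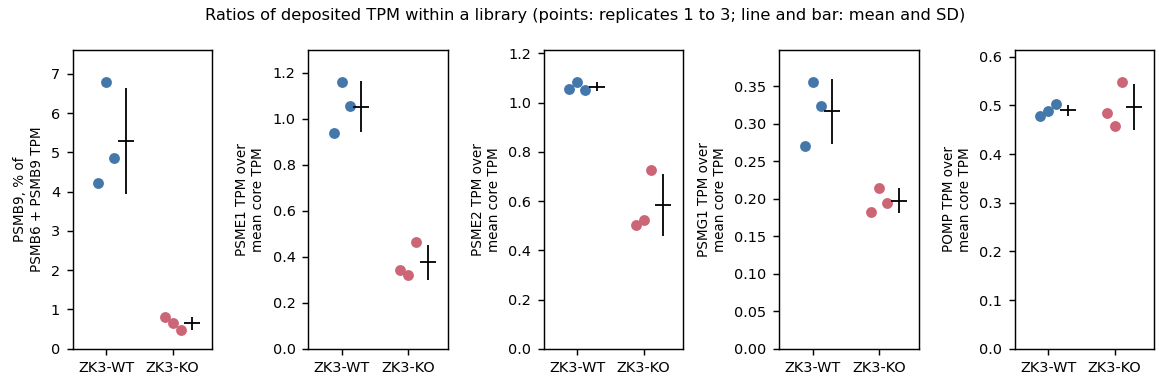
Ratios of deposited TPM within each library, with 1 panel per ratio, points for the 3 replicates of *ZK3*-WT (blue) and *ZK3*-KO (red), and a line and bar for the mean and SD; every axis starts at 0. The *PSMB9* share and the *PSME1*, *PSME2* and *PSMG1* ratios are lower in all 3 *ZK3*-KO libraries, while the *POMP* ratio overlaps around 0.490 and 0.497.

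The 6 ATPases form the ring that unfolds substrates. They had the highest median log2 fold change of the subgroups, 0.66. For all 6 every *ZK3*-KO library was above every *ZK3*-WT library in CPM, as for 12.7% of all genes. By library totals this held for 4 of the 6 (8.84% of all genes) and in TPM for 5 (6.83%). *PSMC1* (NCBI Gene 5700, chr14:90722871-90741773 on GRCh37) had 104, 77.4 and 92.2 CPM across the *ZK3*-WT libraries and 224, 263 and 199 CPM across the *ZK3*-KO libraries. Its groups were far apart, and it had the largest rise among the members at 2.51-fold (log2 fold change 1.33, standard error 0.18, FDR 0.0170). Its pseudogene *PSMC1P1*, which can share reads with it, had 4.63, 4.25 and 5.05 CPM across the *ZK3*-WT libraries and 11.3, 12.3 and 10.4 CPM across the *ZK3*-KO libraries (log2 fold change 1.28, standard error 0.18, FDR 0.0193). *PSMC5* (NCBI Gene 5705, chr17:61904512-61909386) had 128, 104 and 122 CPM across the *ZK3*-WT libraries and 222, 246 and 212 CPM across the *ZK3*-KO libraries, again far apart (1.92-fold, log2 fold change 0.94, standard error 0.15, FDR 0.0283).

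*PSMC2* had 69.0, 54.1 and 60.2 CPM across the *ZK3*-WT libraries and 104, 117 and 76.7 CPM across the *ZK3*-KO libraries (log2 fold change 0.70, standard error 0.19, FDR 0.125). *PSMC4* had 78.1, 76.7 and 90.9 CPM across the *ZK3*-WT libraries and 121, 136 and 122 CPM across the *ZK3*-KO libraries and missed the threshold narrowly (log2 fold change 0.63, standard error 0.14, FDR 0.0788). *PSMC3* had 112, 98.9 and 122 CPM across the *ZK3*-WT libraries and 152, 176 and 160.5 CPM across the *ZK3*-KO libraries (log2 fold change 0.56, standard error 0.15, FDR 0.114). *PSMC6*, the least abundant of the cap per length, had 56.9, 44.1 and 48.4 CPM across the *ZK3*-WT libraries and 82.1, 83.1 and 62.8 CPM across the *ZK3*-KO libraries (log2 fold change 0.61, standard error 0.17, FDR 0.132). All 6 ATPase genes passed the threshold without *ZK3*-KO replicate 3, with log2 fold changes of 0.57 to 1.42, where 7.41% of all genes passed as higher.

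The other subunits of the base are a pair of large scaffolds, *PSMD1* and *PSMD2*, and the ubiquitin receptors *PSMD4* and *ADRM1*. All 4 were higher in *ZK3*-KO cells and none passed (FDR 0.207 to 0.485). In edgeR's test 3 had an unadjusted p-value under 0.05, as did 18.4% of all genes. *PSMD1* had 172, 131 and 140.1 CPM across the *ZK3*-WT libraries and 247, 286 and 156 CPM across the *ZK3*-KO libraries. *PSMD2* had 380.3, 252 and 289 CPM across the *ZK3*-WT libraries and 438, 494 and 271 CPM across the *ZK3*-KO libraries. Both scaffolds had high values in *ZK3*-KO replicates 1 and 2, and replicate 3 fell within the *ZK3*-WT range. *PSMD4* had 138, 119.6 and 144 CPM across the *ZK3*-WT libraries and 171, 166 and 184 CPM across the *ZK3*-KO libraries without overlap, with the lowest log2 fold change of the base (0.38), and *ADRM1* had one of 0.46. Without *ZK3*-KO replicate 3, *PSMD1* (0.86, FDR 0.00864) and *PSMD2* (0.61, FDR 0.0453) passed in edgeR's test, where 7.41% of all genes passed as higher.

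The lid removes ubiquitin chains before degradation. All 8 lid genes were higher in *ZK3*-KO cells, with a median log2 fold change of 0.45, and none passed the threshold (FDR 0.122 to 0.298). In edgeR's test 5 had an unadjusted p-value under 0.05, as did 18.4% of all genes. *PSMD11*, a scaffold that contacts the core, had 119.8, 108 and 118 CPM across the *ZK3*-WT libraries and 174, 222 and 149 CPM across the *ZK3*-KO libraries and had the highest log2 fold change (log2 fold change 0.65, standard error 0.18, FDR 0.122). *PSMD8* had the lowest, 0.34, at 128, 116 and 128 CPM across the *ZK3*-WT libraries and 157, 155 and 158 CPM across the *ZK3*-KO libraries, where the libraries of each genotype lay close together and apart from the other genotype. *PSMD14*, the deubiquitinase of the lid, had a log2 fold change of 0.34 and *PSMD7*, its partner, one of 0.48, both without overlap.

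*PSMD6* had 64.1, 53.8 and 58.2 CPM across the *ZK3*-WT libraries and 81.6, 95.2 and 71.3 CPM across the *ZK3*-KO libraries. *PSMD13* had 131, 98.9 and 116 CPM across the *ZK3*-WT libraries and 157, 167 and 146 CPM across the *ZK3*-KO libraries, and neither gene had overlapping groups. *PSMD3* had 154, 112 and 134 CPM across the *ZK3*-WT libraries and 180.0, 208 and 148 CPM across the *ZK3*-KO libraries. *PSMD12* had 145, 132 and 135 CPM across the *ZK3*-WT libraries and 195, 233 and 138 CPM across the *ZK3*-KO libraries. In *PSMD3* and *PSMD12* the third *ZK3*-KO library lay just below the highest *ZK3*-WT library. These 4 genes and *PSMD11* passed the threshold without *ZK3*-KO replicate 3 (log2 fold changes 0.50 to 0.78, FDR 0.0103 to 0.0461), where 7.41% of all genes passed as higher.

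Per length, the mean TPM of the 14 core subunits was 190.1 ± 30.6 in *ZK3*-WT and 265 ± 55.0 in *ZK3*-KO cells, and that of the 18 cap subunits 122 ± 8.58 and 165 ± 35.0 (SD, n = 3 each). For both means the groups overlapped, since *ZK3*-KO replicate 3 lay within the *ZK3*-WT range (exact permutation test, two-sided, p = 0.2 each). The cap to core ratio was 0.649 ± 0.0636 and 0.622 ± 0.0184, with overlap (exact permutation test, two-sided, p = 0.6). Single core subunits spanned 8.54-fold in *ZK3*-WT cells, from *PSMA5* to *PSMB1*, and 8.03-fold in *ZK3*-KO cells with the same genes at both ends. Cap subunits spanned 5.72-fold, from *PSMC6* to *PSMD2*, in *ZK3*-WT cells, and 5.38-fold, from *PSMC6* to *PSMC5*, in *ZK3*-KO cells.

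**Figure D4:**
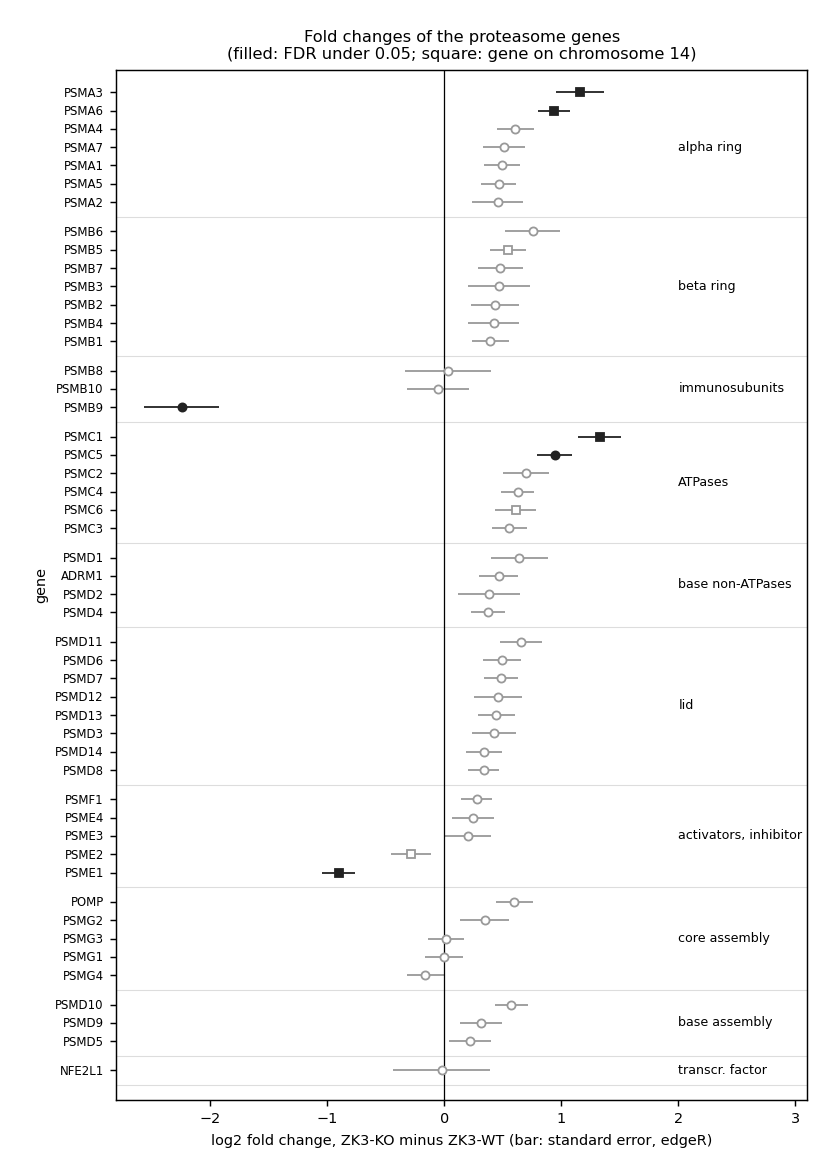
Log2 fold change of *ZK3*-KO minus *ZK3*-WT for each of the 49 genes by subgroup, with the standard error as a bar; filled symbols passed an FDR of 0.05 and squares mark genes on chromosome 14. All 32 constitutive subunits are right of 0, from 0.34 to 1.33, and *PSMB9* (-2.24) and *PSME1* (-0.90) are the filled symbols to the left.

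The activators open the gate of the core without the cap. *PSME1*, a subunit of the interferon-inducible activator, fell 1.87-fold. *PSME1* (NCBI Gene 5720, chr14:24605372-24608176 on GRCh37) had 98.3, 85.9 and 89.2 CPM across the *ZK3*-WT libraries and 46.1, 45.8 and 54.4 CPM across the *ZK3*-KO libraries. The groups were well apart and close within (log2 fold change -0.90, standard error 0.14, FDR 0.0278). Its partner *PSME2* had 92.6, 67.3 and 74.4 CPM across the *ZK3*-WT libraries and 57.1, 62.8 and 72.4 CPM across the *ZK3*-KO libraries, where *ZK3*-KO replicate 3 lay within the *ZK3*-WT range (log2 fold change -0.28, standard error 0.17, FDR 0.429). Relative to the mean TPM of the core subunits of the same library, *PSME1* was at 1.05 ± 0.111 in *ZK3*-WT and 0.375 ± 0.0763 in *ZK3*-KO cells, and *PSME2* at 1.06 ± 0.0186 and 0.584 ± 0.124 (SD, n = 3 each). Neither ratio overlapped between the groups (exact permutation test, p = 0.1 each, the smallest possible), and the core mean that divides them was itself higher on average in *ZK3*-KO cells. The ratio of *PSME1* to *PSME2* was 0.890, 1.07 and 1.00 in *ZK3*-WT and 0.682, 0.614 and 0.637 in *ZK3*-KO libraries, also without overlap (exact p = 0.1).

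The nuclear activator *PSME3*, the large activator *PSME4* and the inhibitor *PSMF1* had log2 fold changes of 0.20, 0.24 and 0.28 (FDR 0.321 to 0.644). *PSMF1*, the highest of the 5, had 88.3, 88.0 and 87.7 CPM across the *ZK3*-WT libraries and 99.3, 104 and 116 CPM across the *ZK3*-KO libraries without overlap, while *PSME3* and *PSME4* overlapped.

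Assembly factors of the core differed among themselves in direction. Their median log2 fold change was 0.01, 3 of 5 were higher in *ZK3*-KO cells and none passed (FDR 0.112 to 0.998). In edgeR's test 1 had an unadjusted p-value under 0.05, as did 18.4% of all genes. Without *ZK3*-KO replicate 3, *POMP* alone of the 5 passed in that test (FDR 0.030), where 7.41% of all genes passed as higher. *POMP*, the chaperone that is degraded by the proteasome it completes, had the highest value. It had 69.0, 49.7 and 58.4 CPM across the *ZK3*-WT libraries and 89.8, 89.5 and 88.7 CPM across the *ZK3*-KO libraries (log2 fold change 0.60, standard error 0.16, FDR 0.112), and its *ZK3*-KO libraries were close together, all above the *ZK3*-WT libraries. *POMP* was at 0.490 ± 0.0119 of the mean core TPM in *ZK3*-WT and 0.497 ± 0.0468 in *ZK3*-KO cells (SD, n = 3 each; exact permutation p = 0.9).

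The other core factors are a pair of dimers that build the alpha ring. *PSMG1* had 42.7, 40.8 and 43.4 CPM across the *ZK3*-WT libraries and 38.7, 50.8 and 37.2 CPM across the *ZK3*-KO libraries (log2 fold change -0.00, standard error 0.16, FDR 0.998), and its partner *PSMG2* had a log2 fold change of 0.35. *PSMG3* had one of 0.01, and *PSMG4*, the lowest of the subgroup, had 11.6, 13.5 and 12.5 CPM across the *ZK3*-WT libraries and 10.4, 11.8 and 11.5 CPM across the *ZK3*-KO libraries (log2 fold change -0.16, standard error 0.16, FDR 0.644). Relative to core TPM, *PSMG1* was at 0.316 ± 0.0433 in *ZK3*-WT and 0.197 ± 0.0166 in *ZK3*-KO cells (SD, n = 3 each), with the log2 fold change of *PSMG1* itself near 0 and a higher mean of the core subunits that divide it. *PSMG1* lies on chromosome 21, where the median log2 fold change of 141 tested genes was -0.39. The part of the chromosome in the *PSMG1* value was not tested.

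The 3 assembly factors of the base, which hold the ATPases during assembly, were all higher and none passed (FDR 0.0978 to 0.556). *PSMD10* had 37.4, 31.1 and 34.1 CPM across the *ZK3*-WT libraries and 53.3, 52.7 and 46.6 CPM across the *ZK3*-KO libraries (log2 fold change 0.57, standard error 0.14, FDR 0.0978), without overlap. It passed in edgeR's test without *ZK3*-KO replicate 3 (FDR 0.0178), where 7.41% of all genes passed as higher. *PSMD5*, the lowest, had 61.0, 64.0 and 58.8 CPM across the *ZK3*-WT libraries and 73.6, 85.2 and 55.7 CPM across the *ZK3*-KO libraries (log2 fold change 0.22, standard error 0.18, FDR 0.556), with overlap, and *PSMD9* had a log2 fold change of 0.32.

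*NFE2L1*, which encodes the factor that drives constitutive subunit genes under proteasome shortage, did not pass the threshold. It had 388, 478 and 609.6 CPM across the *ZK3*-WT libraries and 339.7, 279.9 and 835 CPM across the *ZK3*-KO libraries (log2 fold change -0.02, standard error 0.41, FDR 0.986). *ZK3*-KO replicate 3 was the highest of all 6 libraries, and *ZK3*-KO replicates 1 and 2 were the lowest. Without *ZK3*-KO replicate 3 the log2 fold change was -0.66 (FDR 0.0524). The activity of NFE2L1 is set largely after translation, by cleavage and release from the endoplasmic reticulum, which RNA does not measure. Of 9 genes that process NFE2L1 or belong to its family and partners, 2 were higher and none passed. In edgeR's test 2 of the 9 had an unadjusted p-value under 0.05, as did 18.4% of all genes. The highest was *NGLY1*, which removes its sugar chains, at 27.1, 23.9 and 23.0 CPM across the *ZK3*-WT libraries and 33.9, 32.4 and 29.7 CPM across the *ZK3*-KO libraries (log2 fold change 0.37, FDR 0.233), and the lowest the small MAF gene *MAFF* at -0.86 (FDR 0.502). *MAFF* passed in edgeR's test as lower without *ZK3*-KO replicate 3 (-1.86, FDR 0.0135), the only 1 of the 9, where 7.73% of all genes passed as lower.

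Chromosome position separated some of the calls. The median log2 fold change was 0.51 over 504 tested genes on chromosome 14, against 0.03 over 15468 genes on other chromosomes. With a split at 30 Mb, chosen after the values were seen, 93 genes before it had a median of 0.04 and 411 genes after it a median of 0.60, with quartiles of 0.27 and 0.81. *PSMA6*, *PSMC6*, *PSMA3* and *PSMC1* lie beyond 30 Mb. Their log2 fold changes exceeded the median of that stretch by 0.34, 0.01, 0.56 and 0.73. *PSMB5*, *PSME1* and *PSME2* lie before 30 Mb, where 0 of 93 genes rose and 2 fell past the threshold, *PSME1* among them. Beyond 30 Mb, 53 of 411 genes rose past the threshold, *PSMA6*, *PSMA3* and *PSMC1* among them, and 1 fell. Of all tested genes 0.817% passed as higher and 1.23% as lower. The 27 constitutive subunits on other chromosomes were all higher after the knockout, with a median of 0.47 and 1 call, *PSMC5*. Copy number was not measured here, so its part in these values was not tested.

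**Figure D5:**
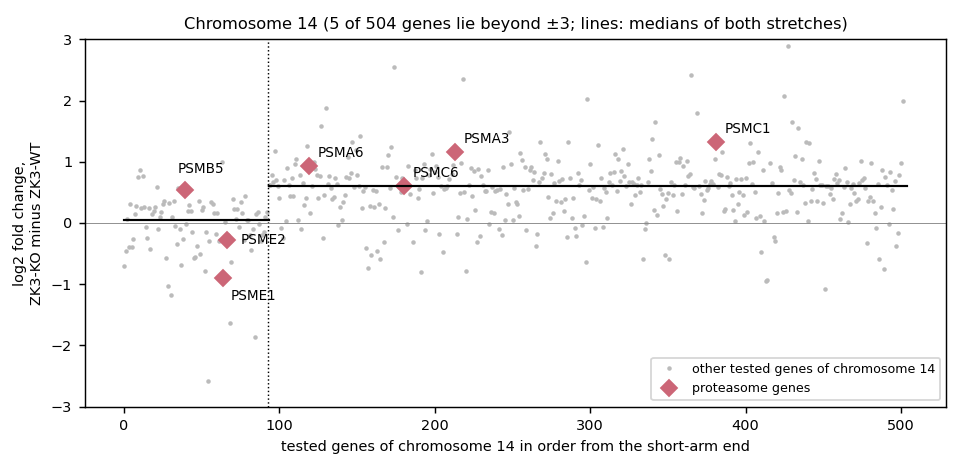
Log2 fold change of *ZK3*-KO minus *ZK3*-WT for 504 tested genes of chromosome 14 in gene order, with proteasome genes as diamonds; the dotted line marks 30 Mb, the horizontal lines the medians of 0.04 and 0.60, and 5 genes lie outside the axis of ±3. *PSMA6*, *PSMA3* and *PSMC1* stand above the median of their stretch, *PSMC6* on it, and *PSME1* far below that of its own.

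Genes that work around the proteasome were counted from lists by function. Of 9 tested factors that bind the proteasome, 4 were higher. At the FDR threshold none rose and 1 fell, where 1.23% of all genes fell. The gene that fell was *ECPAS*, an adaptor that links core and cap, at 146, 147 and 162 CPM across the *ZK3*-WT libraries and 88.5, 95.7 and 85.3 CPM across the *ZK3*-KO libraries (log2 fold change -0.76, standard error 0.13, FDR 0.0391), with the groups well apart. With the replicate block its FDR was 0.058, above the threshold. Leaving out *ZK3*-KO replicate 3, 2 of the 9 fell, *ECPAS* and *ZFAND5*, where 7.73% of all genes did. The highest of the list was *SEM1*, a small lid subunit, at 49.9, 33.6 and 39.4 CPM across the *ZK3*-WT libraries and 53.2, 50.2 and 59.1 CPM across the *ZK3*-KO libraries (log2 fold change 0.40, standard error 0.18, FDR 0.289). *PSMA8*, a subunit of the testis, had no reads, and *PSMB11*, of the thymus, at most 4.

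All 10 genes of the unfolding enzyme p97 and of shuttle factors that carry ubiquitylated proteins to the proteasome were higher. Their median log2 fold change was 0.26 and none passed. In edgeR's test 4 had an unadjusted p-value under 0.05, as did 18.4% of all genes. The highest was *VCP*, the p97 gene, at 259.6, 189.7 and 204 CPM across the *ZK3*-WT libraries and 345, 378 and 287 CPM across the *ZK3*-KO libraries (log2 fold change 0.63, standard error 0.19, FDR 0.146), without overlap, and the lowest *FAF1* at 0.12. Of the 10, 4 passed as higher without *ZK3*-KO replicate 3, *VCP*, *UFD1*, *NPLOC4* and *NSFL1C*, where 7.41% of all genes did. All 6 genes of ubiquitin and its activating enzymes were above 0, from *UBA6* at 0.0048 to *UBB* at 0.61, and none passed. Of these, 1 had an unadjusted p-value under 0.05 in edgeR's test, against 18.4% of all genes. *UBB* had 785, 603 and 605 CPM across the *ZK3*-WT libraries and 1046, 1027 and 961 CPM across the *ZK3*-KO libraries, without overlap (FDR 0.129), and was the 1 gene of the 6 that passed without *ZK3*-KO replicate 3 (FDR 0.0194).

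Antigen processing genes and their regulators were mostly lower, like *PSMB9* and *PSME1*. Of a list of 10 genes 9 were lower in *ZK3*-KO cells. Over the 8 reported here all were lower, with a median log2 fold change of -0.44 and 1 past the threshold. In edgeR's test 4 of them had an unadjusted p-value under 0.05, as did 18.4% of all genes. For 6 every *ZK3*-KO library was below every *ZK3*-WT library, as for 13.8% of all genes. Of the 8, 6 passed as lower without *ZK3*-KO replicate 3, where 7.73% of all genes did. *TAPBP*, which loads peptides onto MHC class I, had 142, 121 and 125 CPM across the *ZK3*-WT libraries and 74.6, 76.6 and 68.4 CPM across the *ZK3*-KO libraries (log2 fold change -0.82, standard error 0.14, FDR 0.0343), with the groups far apart. *NLRC5*, which activates MHC class I genes and had the lowest log2 fold change of the 8, missed the threshold (-1.04, FDR 0.0579) and passed with the replicate block (FDR 0.0461). *TAP1*, which starts 488 bases from the RefSeq start of *PSMB9* on the opposite strand, had a log2 fold change of -0.26 (FDR 0.409), while *PSMB9* fell by 2.24 on the log2 scale.

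Other large complexes give the scale for the constitutive subunits. The 9 subunits of the COP9 signalosome, which is built like the lid, were all higher with a median log2 fold change of 0.20. Of the 8 subunits of the CCT chaperonin, 7 were higher with a median of 0.41, and of 16 genes of the anaphase-promoting complex, 13 were higher with a median of 0.22. None of these genes passed the threshold in edgeR's test. An unadjusted p-value under 0.05 was reached by 1, 1 and 2 of them, by 24 of the 32 constitutive subunits and by 18.4% of all genes. When *ZK3*-KO replicate 3 was left out, 7 of the 8 chaperonin genes passed as higher with a median of 0.60, as did 23 of the 32 constitutive subunits with a median of 0.60. In that fit 7.41% of all genes passed as higher and 7.73% as lower. None of the signalosome genes passed then, and of the anaphase-promoting complex 2 were called higher and 1 lower. Relative to *ZK3*-WT, the median log2 CPM of the constitutive subunits was 0.54, 0.69 and 0.35 in *ZK3*-KO replicates 1, 2 and 3. It was 0.47, 0.71 and 0.04 for the chaperonin, 0.21, 0.37 and 0.05 for the signalosome, and 0.17, 0.32 and 0.18 for the anaphase-promoting complex. The chaperonin thus lay close to the constitutive subunits in replicates 1 and 2 and below them in replicate 3. Differences between these sets were not tested.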

How the data were processed

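RNA of 3 *ZK3*-WT and 3 *ZK3*-KO cultures was sequenced by the authors and aligned to hg19 with Bowtie 2 (version 2.2.5 in the submitters' processing notes). The methods name Partek Flow and an Ensembl annotation, while identifiers in the deposited table are those of NCBI Gene and RefSeq. The program that counted reads and its use of strand are not given in the sources used here. The authors deposited unnormalized read counts per gene. The authors also deposited FPKM values, which were not used, and TPM values scaled for transcript length, which were used for ratios within a library and for 1 alternative.

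Counts were filtered with filterByExpr, scaled with TMM and tested with edgeR 4.0.16 in R 4.3.3, with genotype as the only factor and Benjamini-Hochberg adjustment over all 18366 tested genes. The authors had modelled TPM by ANOVA. Ratios were compared by exact permutation over libraries. Alternatives were DESeq2 1.42.0, library totals, upper-quartile factors, a filter of 1 read in any library, one of 10 reads in every library, limma 3.58.1 on log2(CPM + 1) and on log2(TPM + 1), each library left out in turn, a block for the replicate number, and removal of chromosome 14 members. Steps were tested on simulated data with known changes, at the same threshold. There edgeR found 35.8% of 2-fold and 89.2% of 4-fold changes, and 7.87% of its calls were false. For DESeq2 these values were 41.1%, 92.5% and 17.8%. Values of every library were given for members past an FDR of 0.05 with all libraries or without *ZK3*-KO replicate 3, the catalytic subunits and immunosubunits, *NFE2L1*, and the highest and lowest of each subgroup, to which *PSME2* and *PSMG1* were added after their values were seen. In the lists of other genes, those past the threshold and the highest and lowest were named, and *NLRC5* and *TAP1* were added after their values were seen. In the list of antigen processing genes 2 genes are not reported here, and the highest of the others was not named. The members, lists and tests were chosen with earlier results of these data known.

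Across genes, deviations from the group means correlated between libraries of 1 replicate number at 0.473, 0.124 and 0.616 for numbers 1, 2 and 3. For unlike numbers the values were -0.573 to 0.289. *ZK3*-KO replicate 2 was closer to *ZK3*-WT replicate 1 (0.289) than to *ZK3*-WT replicate 2, so pairing by number was not clear there. The numbers, which come from the sample titles, were taken as pairs in the block all the same. What they mark is not given in the sources used here. Gene positions came from GENCODE 44 lifted to GRCh37, matched by symbol for 87.0% of tested genes and all 49 members. Of 43 proteasome pseudogenes in the table, 2 had over 100 reads in a library (*PSMC1P1* and *PSMD10P2*).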

Additional observations from a re-analysis of the deposited data

How the results depend on the processing

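Among the 49 members, 6 passed the threshold in edgeR's test and 17 in DESeq2, where 376 and 1506 of all genes passed. With library totals 5 members passed, with a filter of 1 read 5 and in limma on TPM 4. Leaving out 1 library gave between 49 and 2858 genes and between 0 and 27 members past the threshold, 41 to 45 members above 0, and a median of 0.35 to 0.55. For *ZKSCAN3* the log2 fold change was between -0.29 and 0.086, the latter without *ZK3*-KO replicate 3. Without members on chromosome 14, 2 members passed, since fewer were counted, with a median of 0.44. The replicate block gave 461 genes and the same 6 members, and changed no other call among the 49 members. Library totals and TPM moved the median of all genes by -0.0835 and -0.10.

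Members near 0 changed sign. *PSMB8* (0.033 in the reported fit) was at -0.063 with library totals, -0.055 in TPM, -0.0042 with the block and between -0.27 and 0.24 in leave-one-out fits. *PSMG3* (0.014) was at -0.070 with library totals, -0.012 with upper-quartile factors, -0.054 in TPM and between -0.066 and 0.12 in leave-one-out fits. *PSMG1* was at 0.0045 in DESeq2. Leave-one-out values ran from -0.16 to 0.088 for *PSMG1*, from -0.39 to 0.10 for *PSMB10*, from -0.66 to 0.26 for *NFE2L1* and from -0.016 to 0.35 for *PSME3*. The causes were not tested.

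*PSMB8* had the fewest reads of the members, 32 to 57 in a library. Standard errors did not follow depth alone, at 0.27 for *PSMB10* (474 to 953 reads) and 0.26 for *PSMD2* (16730 to 34285 reads).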
